A study of Mus musculus with 6 samples.

Results

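Integrins are the receptors through which cells hold on to the extracellular matrix and to each other. The genes described here are the 31 genes of the deposited table, out of 23361, whose names start with Itga or Itgb. Of these, 27 code for integrin subunits and 4 carry such a name without coding for a subunit. RNA was sequenced from cells of the hindlimb muscle of mice at 4 months of age, sorted by FACS as satellite cells on the surface proteoglycan Sdc4 after collagenase digestion. The labels give 3 AUF1-null (KO) and 3 wild-type (WT) samples, and all of these mice share a C57BL/6 and 129 background. AUF1 is the product of Hnrnpd and binds AU-rich elements in mRNA. Which part of the gene was deleted, whether other cell types also lacked it, and whether each sample came from 1 mouse, was not stated in the labels used here.

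The authors' deposited table names its conditions q2 and q1 and lists 1 value per gene for each, pooled over the replicates, on the FPKM scale (fragments scaled to transcript length and library size). No label ties q1 or q2 to a genotype. The table's deposited name has wild type ahead of knockout, but neither the table nor the labels say that q1 and q2 follow that order, so every difference is that of q2 relative to q1. With 1 pooled value per condition, levels carry no error. The only test is the one by Cuffdiff in the authors' deposited table, and a gene counts as called where its q-value there is below 0.05. Hnrnpd did not tell the conditions apart, at 5.59 FPKM in q2 and 7.50 FPKM in q1 in the authors' deposited table (Cuffdiff q = 0.999). Pax7, which defines satellite cells, was listed at 0.85 FPKM in q2 and 1.16 FPKM in q1 in the authors' deposited table, and Myf5, of the same lineage, at 17.8 FPKM in q2 and 16.7 FPKM in q1. Pecam1, of endothelium, was listed at 327 FPKM in q2 and 421 FPKM in q1 in the authors' deposited table, and Ptprc, of leukocytes, at 25.1 FPKM in q2 and 12.1 FPKM in q1. The levels below are therefore those of the sorted fraction as a whole. In such bulk RNA, fewer cells of a type and less RNA per cell cannot be told apart.

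An integrin is a pair of an alpha and a beta chain, and the pair decides the ligand. The beta2 chain pairs with the alphaL, alphaM, alphaX and alphaD chains on leukocytes, where it binds ICAM proteins on other cells and complement fragments. The beta1 chain pairs with many alpha chains, among them alpha3, alpha6 and alpha7, which bind laminin of basement membranes, and alpha1, alpha2, alpha10 and alpha11, which bind collagen. In skeletal muscle, alpha7beta1 links myofibres and satellite cells to laminin.

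The genes of the leukocyte class lie on several chromosomes, but Itgal, Itgam, Itgax and Itgad lie on chromosome 7 (chr7:127296260-128206366, GRCm38), with a gap of 11.1 kb between Itgam and Itgax. Promoters of 300 bases, from 250 before to 50 after the annotated start, were held by the RefSeq table of GRCm38.p6 for 22 of the 31 genes. They are shown for the 4 leukocyte subunits with an entry and for Itga3 and Itga10, the laminin- and collagen-binding subunits with the lowest p-values, so that the start regions of the genes that were higher and lower in q2 can be read side by side. Capitals mark GAGGAA or its reverse complement TTCCTC, the purine-rich core that the myeloid factor PU.1 and other Ets proteins can bind.
Itgb2l, chr16:96443565-96443864, minus strand: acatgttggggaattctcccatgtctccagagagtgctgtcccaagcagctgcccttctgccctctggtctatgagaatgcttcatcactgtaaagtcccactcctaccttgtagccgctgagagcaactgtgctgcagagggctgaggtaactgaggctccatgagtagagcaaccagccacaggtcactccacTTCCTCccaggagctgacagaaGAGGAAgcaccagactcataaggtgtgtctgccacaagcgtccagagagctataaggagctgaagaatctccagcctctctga
Itgb7, chr15:102231886-102232185, minus strand: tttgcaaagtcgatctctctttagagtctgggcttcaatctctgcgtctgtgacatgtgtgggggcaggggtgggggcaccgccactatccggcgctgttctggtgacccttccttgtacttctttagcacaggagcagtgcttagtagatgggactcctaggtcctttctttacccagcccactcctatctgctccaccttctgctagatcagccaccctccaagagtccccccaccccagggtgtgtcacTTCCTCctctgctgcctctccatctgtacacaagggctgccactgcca
Itgam, chr7:128062390-128062689, plus strand: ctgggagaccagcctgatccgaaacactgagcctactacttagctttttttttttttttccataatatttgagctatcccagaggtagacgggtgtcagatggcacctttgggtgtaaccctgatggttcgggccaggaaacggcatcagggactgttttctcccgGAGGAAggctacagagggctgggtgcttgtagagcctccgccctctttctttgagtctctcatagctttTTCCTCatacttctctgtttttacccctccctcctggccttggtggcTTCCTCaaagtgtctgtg
Itgax, chr7:128129300-128129599, plus strand: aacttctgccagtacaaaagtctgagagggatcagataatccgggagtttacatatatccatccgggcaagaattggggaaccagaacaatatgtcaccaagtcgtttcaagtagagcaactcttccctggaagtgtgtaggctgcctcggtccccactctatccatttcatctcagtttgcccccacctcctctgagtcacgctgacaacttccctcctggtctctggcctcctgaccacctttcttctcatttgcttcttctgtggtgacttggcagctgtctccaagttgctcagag
Itga3, chr11:95076665-95076964, minus strand: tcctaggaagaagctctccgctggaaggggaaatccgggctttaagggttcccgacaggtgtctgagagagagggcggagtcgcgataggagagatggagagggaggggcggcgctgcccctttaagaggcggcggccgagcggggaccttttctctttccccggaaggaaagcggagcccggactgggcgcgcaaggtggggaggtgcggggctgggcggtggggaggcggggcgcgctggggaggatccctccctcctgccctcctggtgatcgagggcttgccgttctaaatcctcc
Itga10, chr3:96645334-96645633, plus strand: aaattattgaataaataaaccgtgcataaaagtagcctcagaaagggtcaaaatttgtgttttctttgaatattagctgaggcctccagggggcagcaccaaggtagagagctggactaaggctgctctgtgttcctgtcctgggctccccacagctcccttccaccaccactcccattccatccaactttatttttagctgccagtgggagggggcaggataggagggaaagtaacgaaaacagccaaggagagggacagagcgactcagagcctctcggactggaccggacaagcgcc

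GAGGAA, searched on both strands, occurred 3 times in the Itgam promoter, 2 times in that of Itgb2l and 1 time in that of Itgb7, and these letters were not in the windows of Itgax, Itga3 and Itga10 shown. The RefSeq table holds a second Itga3 promoter, further into the gene, and that of the collagen-binding Itga11, and each of these holds GAGGAA 1 time. Also outside the leukocyte class, it occurred 2 times each in the promoters of Itga2b and Itgav. It occurred 1 time each in those of Itga5 and Itgb1 and in an Itgb6 promoter. Of all 32851 promoters in the RefSeq table, 28.3% held it, and of the 24 promoters of the 22 genes, 10 did, or 41.7%. The motif GGGCGG, the core of GC boxes, was also searched on both strands and was held by 35.7% of all promoters. It occurred 3 times in the Itga3 promoter shown and 1 time in that of Itgam, and was not in the other 4 windows.

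Integrin subunits of leukocytes were listed higher in q2 and those that bind laminin or collagen lower, but no single integrin gene passed the authors' test. Of the 31 genes, 30 were tested and none was called at q below 0.05 by Cuffdiff in the authors' deposited table, where 0.612% of all 14858 tested genes were. At an unadjusted Cuffdiff p below 0.05 there were 4 integrin genes higher in q2, all in the leukocyte class, and 4 lower in q2, of which 2 bind laminin or collagen. Over all tested genes, 3.72% were higher and 2.27% lower by that rule. The smallest q-value of an integrin gene was 0.168, for Itga9.

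**Figure D1:**
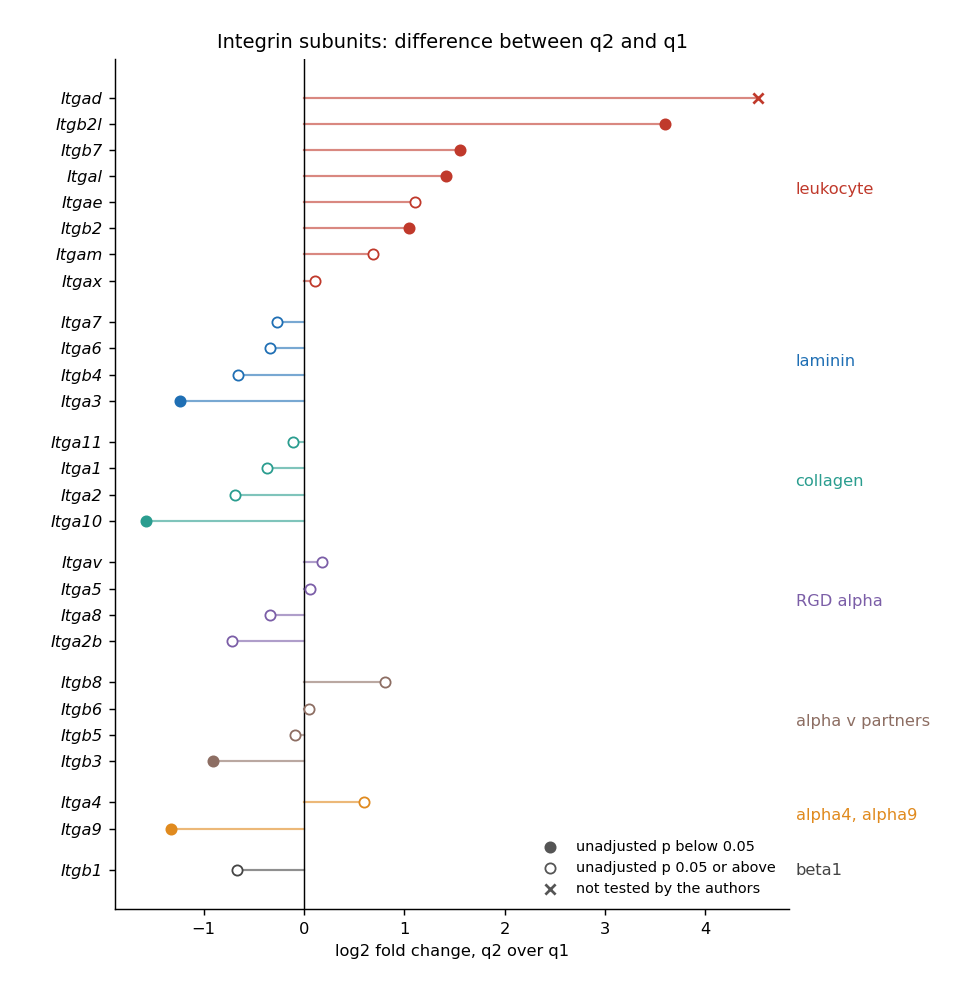
The log2 fold change of q2 over q1 is plotted for each of the 27 integrin subunits, grouped by class, with filled points at an unadjusted Cuffdiff p below 0.05 and a cross for Itgad, which the authors did not test. All 7 tested leukocyte subunits lie right of 0 and all 8 laminin- and collagen-binding subunits left of it.

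In the leukocyte class, 7 of the 8 subunits were tested and all 7 were listed higher in q2, where 48.7% of all tested genes were. The median log2 fold change of the 7 was 1.11, which is the value of the low Itgae, against -0.01 over all tested genes. A difference of at least 2-fold was found for 5 of them, Itgae included, against 7.71% of all tested genes. Because the classes were set up with earlier results of these data known, these counts are a description without a test.

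Itgb2 codes for the beta2 chain (CD18), which all 4 of its alpha partners need to reach the cell surface. It was listed at 51.0 FPKM in q2 and 24.6 FPKM in q1 in the authors' deposited table (log2 fold change 1.05, unadjusted Cuffdiff p = 0.0123, q = 0.497). It was thus the highest leukocyte subunit in both conditions, the second highest of all 27 subunits in q2 and the sixth in q1.

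Itgal, the alphaL chain of LFA-1 on nearly all leukocytes, was listed at 3.67 FPKM in q2 and 1.38 FPKM in q1 in the authors' deposited table (log2 fold change 1.42, unadjusted Cuffdiff p = 0.0149, q = 0.541). Itgam, the alphaM chain (CD11b) of neutrophils, monocytes and macrophages, was listed at 16.3 FPKM in q2 and 10.2 FPKM in q1 in the authors' deposited table (log2 fold change 0.68, unadjusted Cuffdiff p = 0.0961, q = 0.999). Itgax, the alphaX chain (CD11c) of dendritic cells and macrophages, differed least, at 1.62 FPKM in q2 and 1.50 FPKM in q1 in the authors' deposited table (log2 fold change 0.11, q = 0.999). The neighbours Itgam and Itgax on chromosome 7 thus differed in size of change, by 1.61-fold and 1.08-fold, and that difference was not tested. Itgad, the alphaD chain, was not tested by the authors and was listed at 0.39 FPKM in q2 and 0.017 FPKM in q1 in the authors' deposited table, and no ratio is given for it. Summed, the 4 alpha partners of beta2 came to 22.0 FPKM in q2 and 13.1 FPKM in q1, or 0.43 and 0.53 per FPKM of Itgb2.

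Itgb2l, known in mice as pactolus and described in neutrophils there, had the largest ratio of the tested integrin genes. It was listed at 7.21 FPKM in q2 and 0.60 FPKM in q1 in the authors' deposited table (12.1-fold higher, log2 fold change 3.59, unadjusted Cuffdiff p = 0.00375, q = 0.277). With 1 FPKM added to both sides, its log2 fold change was 2.36, since the q1 level is low. Itgb2l is a close relative of Itgb2, so part of its reads could belong to that gene, and its level is uncertain.

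Itgb7 codes for the beta7 chain, with which lymphocytes bind MAdCAM-1 and E-cadherin. It was listed at 6.18 FPKM in q2 and 2.11 FPKM in q1 in the authors' deposited table (log2 fold change 1.55, unadjusted Cuffdiff p = 0.00485, q = 0.317). Its partner Itgae, the alphaE chain (CD103) of intraepithelial T cells, was low, at 0.53 FPKM in q2 and 0.24 FPKM in q1 in the authors' deposited table (log2 fold change 1.11, q = 0.999). With 1 FPKM added to both sides, the log2 fold change of Itgae was 0.30. Itga4, the alpha4 chain that also pairs with beta7 but is found outside leukocytes too, was listed at 2.82 FPKM in q2 and 1.86 FPKM in q1 in the authors' deposited table (log2 fold change 0.60, q = 0.999). Both partners of beta7 were therefore listed in the same direction as Itgb7, without passing the test.

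**Figure D2:**
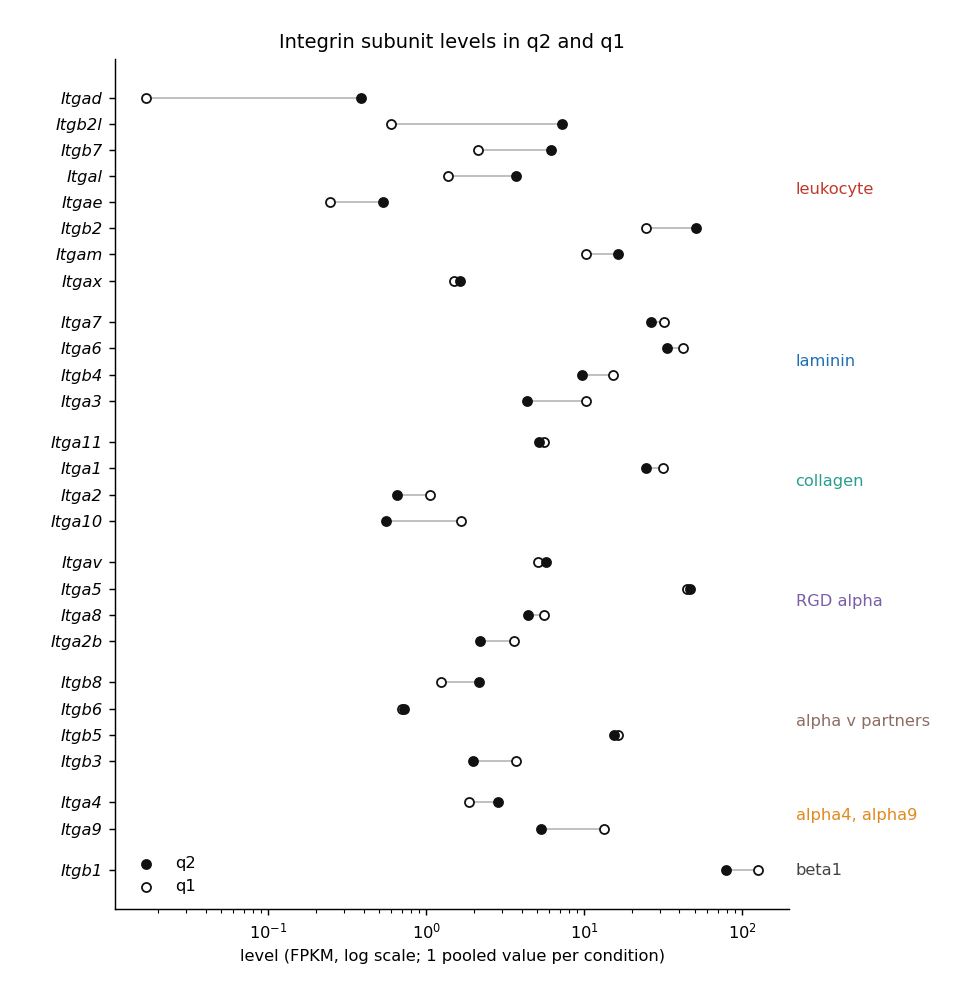
The FPKM level of each of the 27 integrin subunits is plotted on a log scale, with a filled point for q2 and an open point for q1, grouped by class. Itgb1 is the highest subunit in both conditions, at 79.4 FPKM in q2 and 126 FPKM in q1, and Itgad the lowest.

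Markers of immune cells were also listed higher in q2, and some were called. Among all tested genes, 48.7% were listed higher and 0.612% were called in either direction. Of the 8 markers shared by leukocytes, all 8 were listed higher in q2, and Coro1a, Cd52 and Rac2 were called. Their levels summed to 1155 FPKM in q2 and 406 FPKM in q1 in the authors' deposited table. Ptprc, the CD45 phosphatase of leukocytes, was listed at 25.1 FPKM in q2 and 12.1 FPKM in q1 in the authors' deposited table (log2 fold change 1.05). The log2 fold changes of the 8 ran from 0.82 for Lcp1 to 2.50 for Cd52. Of 12 neutrophil markers, 10 were called higher, S100a8, S100a9, Camp and Mmp8 among them, and the median log2 fold change was 3.37. Summed, the neutrophil markers came to 15263 FPKM in q2 and 1185 FPKM in q1 in the authors' deposited table.

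Of 12 lymphocyte and natural killer markers, all 12 were listed higher in q2, and Nkg7 was called, with sums of 82.1 FPKM in q2 and 18.3 FPKM in q1 in the authors' deposited table. Of 11 macrophage and monocyte markers in the table, 8 were listed higher and Ccr2, Tyrobp and Ly6c2 were called. The 11 summed to 2792 FPKM in q2 and 1399.8 FPKM in q1, of which Lyz2 alone was 1504 FPKM in q2 and 633 FPKM in q1. The macrophage genes Csf1r, Mrc1 and Emr1 were the 3 listed lower, with Csf1r at 49.7 FPKM in q2 and 83.8 FPKM in q1 in the authors' deposited table. Of 8 dendritic cell markers, 5 were listed higher and Ccr7 was called, with sums of 72.0 FPKM in q2 and 64.4 FPKM in q1. No marker of these lists was at 0 in either condition. The share of all tested genes that were called was 0.612%, and 48.7% were listed higher. The part of these cells in the levels of the leukocyte integrins was not tested.

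**Figure D3:**
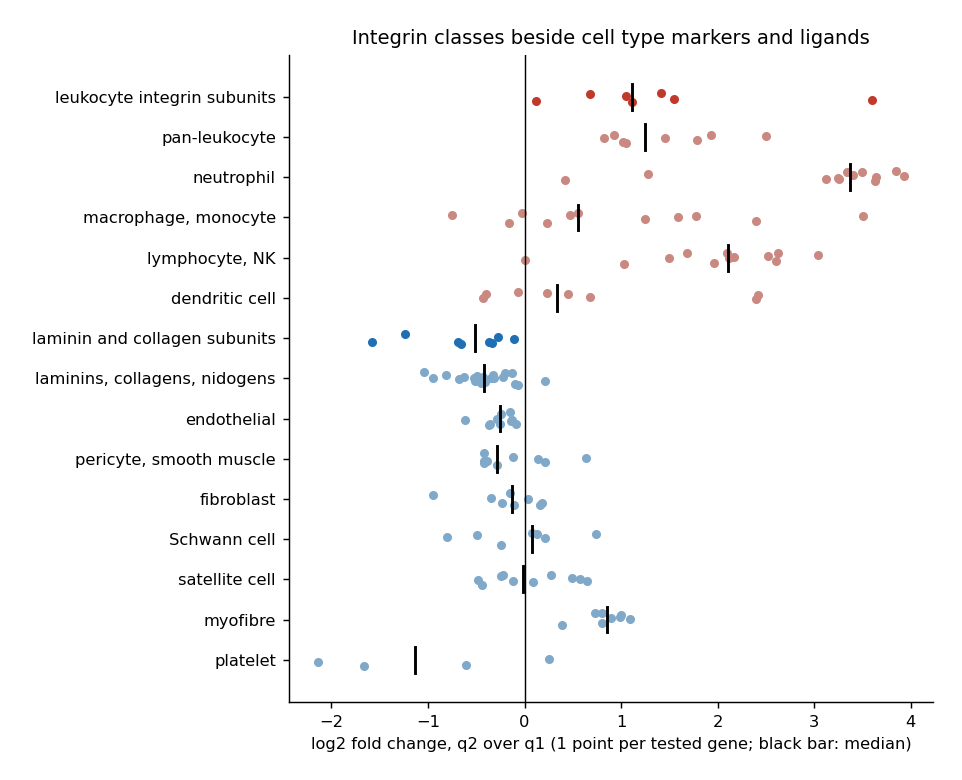
Each point is the log2 fold change of q2 over q1 of a tested gene, in rows for the leukocyte and the laminin- and collagen-binding integrin subunits and for lists of cell type markers and ligands, with the median as a black bar. The leukocyte subunits have a median of 1.11 and the pan-leukocyte markers 1.25, while the laminin- and collagen-binding subunits have a median of -0.51 and their ligands -0.42.

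All 8 subunits that bind laminin or collagen were tested and listed lower in q2, where 7629 of all 14858 tested genes were. Their median log2 fold change was -0.51. The difference between this median and that of the leukocyte class was 1.62 on the log2 scale. At least 2-fold lower were 2 of the 8, Itga3 and Itga10, against 4.87% of all tested genes. The summed level of the 8 was 105 FPKM in q2 and 139 FPKM in q1, against 86.9 FPKM in q2 and 40.6 FPKM in q1 for the leukocyte class.

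Among laminin-binding subunits, the abundant chains Itga7 and Itga6 had smaller listed differences than Itgb4 and Itga3. Itga7, the alpha7 chain of muscle, was listed at 26.3 FPKM in q2 and 31.8 FPKM in q1 in the authors' deposited table (log2 fold change -0.27, q = 0.999). Itga6, which pairs with beta1 or beta4 and is abundant on endothelial and Schwann cells, was listed at 33.5 FPKM in q2 and 42.4 FPKM in q1 in the authors' deposited table (log2 fold change -0.34, q = 0.999). Itgb4, the beta4 chain that pairs with alpha6 alone, was listed at 9.62 FPKM in q2 and 15.2 FPKM in q1 in the authors' deposited table (log2 fold change -0.66, q = 0.999). Itga3, the alpha3 chain that binds laminins holding the alpha5 or alpha3 laminin chain, was lower by the largest factor of the class. It was listed at 4.34 FPKM in q2 and 10.2 FPKM in q1 in the authors' deposited table (2.35-fold lower, log2 fold change -1.23, unadjusted Cuffdiff p = 0.00425, q = 0.298).

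Among collagen-binding subunits, the scarce Itga2 and Itga10 had larger listed differences than Itga1 and Itga11. Itga1, the most abundant of them, was listed at 24.4 FPKM in q2 and 31.4 FPKM in q1 in the authors' deposited table (log2 fold change -0.36, q = 0.999). Itga11, of fibroblasts, was nearly level, at 5.17 FPKM in q2 and 5.57 FPKM in q1 in the authors' deposited table (log2 fold change -0.11, q = 0.999). Itga2, which lies 26.0 kb from Itga1 on chromosome 13, was listed at 0.65 FPKM in q2 and 1.05 FPKM in q1 in the authors' deposited table (log2 fold change -0.69, q = 0.999). Itga10, a collagen receptor best known from cartilage, was listed at 0.56 FPKM in q2 and 1.66 FPKM in q1 in the authors' deposited table (2.98-fold lower, log2 fold change -1.58, unadjusted Cuffdiff p = 0.0174, q = 0.567). With 1 FPKM added to both sides, its log2 fold change was -0.77.

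Of 7 tested cartilage genes, a list added after values were seen, 5 were listed lower in q2, as Itga10 was. Acan, Col2a1 and Col11a1 of these were called. Of all 14858 tested genes, 7629 were listed lower and 0.612% were called in either direction. Col2a1 was listed at 0.054 FPKM in q2 and 1.69 FPKM in q1 in the authors' deposited table, and Acan at 0 in q2 and 0.47 FPKM in q1. Sox9 and Matn3 were listed higher without passing the test, Sox9 at 3.23 FPKM in q2 and 1.81 FPKM in q1 and Matn3 at 0.69 FPKM in q2 and 0.16 FPKM in q1, in the authors' deposited table. Matn1 was at 0 in both conditions. The summed level of the list was 22.1 FPKM in q2 and 42.4 FPKM in q1. Most of it was Comp, at 15.7 FPKM in q2 and 31.2 FPKM in q1 (Cuffdiff q = 0.485). The part of cartilage cells in the level of Itga10 was not tested.

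Itgb1, the chain that all of the alpha subunits of both matrix classes share, was listed at 79.4 FPKM in q2 and 126 FPKM in q1 in the authors' deposited table (1.59-fold lower, log2 fold change -0.67, unadjusted Cuffdiff p = 0.0960, q = 0.999). It was the highest of the 27 subunits in both conditions. Its 12 alpha partners, Itgav included, summed to 159.7 FPKM in q2 and 194 FPKM in q1, or 2.01 and 1.54 per FPKM of Itgb1. Endothelial markers were also listed lower in 10 of 10 cases, where 7629 of all 14858 tested genes were. The 10 had a median log2 fold change of -0.25 and none was called. They summed to 15844 FPKM in q2 and 18732 FPKM in q1, or 3813 FPKM in q2 and 4346 FPKM in q1 without Fabp4. The part of endothelial cells in the level of Itgb1 was not tested.

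**Figure D4:**
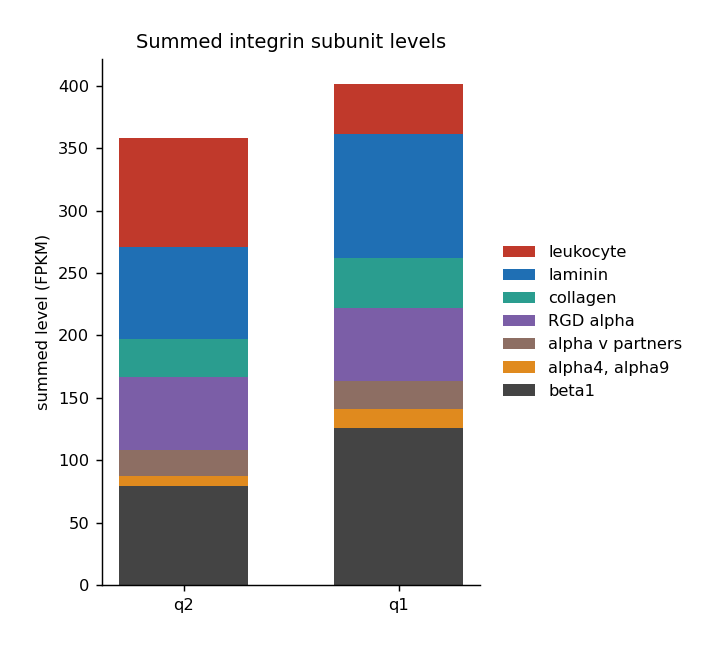
Bars stack the summed FPKM levels of the 27 integrin subunits by class, for q2 and for q1. The leukocyte class makes up 24.3% of the sum in q2 and 10.1% in q1, and Itgb1 22.2% in q2 and 31.4% in q1, of totals of 358 FPKM in q2 and 402 FPKM in q1.

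Receptors for the RGD motif of fibronectin and vitronectin had no common direction. Itga5, the alpha5 chain of the fibronectin receptor, was listed at 46.5 FPKM in q2 and 44.4 FPKM in q1 in the authors' deposited table (log2 fold change 0.06, q = 0.999). Itgav was listed at 5.75 FPKM in q2 and 5.07 FPKM in q1, and Itga8, of smooth muscle and mesenchymal cells, at 4.40 FPKM in q2 and 5.55 FPKM in q1, in the authors' deposited table. Among the beta chains that pair with alpha v, Itgb5 was listed at 15.5 FPKM in q2 and 16.4 FPKM in q1 in the authors' deposited table. Itgb8, which with alpha v activates latent TGF-beta, was listed at 2.16 FPKM in q2 and 1.23 FPKM in q1, and Itgb6, of epithelia, at 0.72 FPKM in q2 and 0.70 FPKM in q1, in the authors' deposited table. The log2 fold change of Itgb8, at 0.81, was the largest of these genes in size. None of these 6 genes had an unadjusted Cuffdiff p below 0.05.

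Itga2b and Itgb3 together form the fibrinogen receptor of platelets, and both were listed lower in q2. Itgb3, which also pairs with alpha v on endothelial cells, was listed at 1.97 FPKM in q2 and 3.71 FPKM in q1 in the authors' deposited table (log2 fold change -0.91, unadjusted Cuffdiff p = 0.0413, q = 0.779). Itga2b was listed at 2.17 FPKM in q2 and 3.57 FPKM in q1 in the authors' deposited table (log2 fold change -0.72, q = 0.999). Of 4 tested platelet markers, Ppbp, Gp9 and Treml1 were listed lower and Pf4, which macrophages can also express, higher, at 327 FPKM in q2 and 275 FPKM in q1 in the authors' deposited table. Ppbp was listed at 1.93 FPKM in q2 and 8.49 FPKM in q1 in the authors' deposited table (unadjusted Cuffdiff p = 0.00525). No platelet marker was at 0. Their part in the levels of Itga2b and Itgb3 was not tested.

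Itga9, the alpha9 chain that pairs with beta1 and binds tenascin-C, VCAM-1 and EMILIN-1, had the lowest p-value of all integrin genes. It was listed at 5.31 FPKM in q2 and 13.3 FPKM in q1 in the authors' deposited table (2.50-fold lower, log2 fold change -1.32, unadjusted Cuffdiff p = 0.00155, q = 0.168). The ligand genes Tnc and Emilin1 were listed lower as well, Tnc at 4.23 FPKM in q2 and 9.53 FPKM in q1 and Emilin1 at 4.51 FPKM in q2 and 8.92 FPKM in q1, in the authors' deposited table. Neither passed the test (q = 0.338 and 0.540), and Emilin1 was chosen after its values were seen. Of 6 lymphatic endothelial markers, also added after values were seen, 5 were listed lower, where 7629 of all 14858 tested genes were. The median log2 fold change of the 6 was -0.28, and none was called.

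The 4 genes that carry an integrin-like name without being a subunit did not pass either. Itgb1bp1, which codes for a protein that binds the beta1 tail, was listed at 20.5 FPKM in q2 and 21.1 FPKM in q1 in the authors' deposited table. Itgb1bp2, the muscle chaperone melusin, was listed at 2.78 FPKM in q2 and 2.01 FPKM in q1, and Itgb3bp, a centromere protein, at 4.80 FPKM in q2 and 3.36 FPKM in q1, in the authors' deposited table. Itgbl1, a secreted protein with integrin-like repeats, was listed at 13.6 FPKM in q2 and 19.8 FPKM in q1 in the authors' deposited table. Their log2 fold changes spanned -0.54 to 0.52, all at q = 0.999.

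Inside the cell, integrins are switched on by talin and kindlin and tied to actin by adaptors, and 1 of these was called. Parvg, the parvin of blood cells, rose to 9.05 FPKM in q2, against 1.91 FPKM in q1, in the authors' deposited table (4.74-fold, Cuffdiff q = 0.0108). Its relative Parvb, of muscle and other tissues, was listed at 7.45 FPKM in q2 and 15.0 FPKM in q1 in the authors' deposited table (unadjusted Cuffdiff p = 0.0170, q = 0.566), and the broadly expressed Parva at 37.8 FPKM in q2 and 48.7 FPKM in q1. The kindlin of blood cells, Fermt3, was listed at 23.7 FPKM in q2 and 12.9 FPKM in q1, against 88.1 FPKM in q2 and 104 FPKM in q1 for the widely expressed Fermt2, in the authors' deposited table. Tln2, a talin of muscle and brain, was listed at 3.27 FPKM in q2 and 5.94 FPKM in q1 in the authors' deposited table (unadjusted Cuffdiff p = 0.0171). The abundant adaptors Lims2, Actn4 and Ilk had log2 fold changes of 0.02, -0.16 and 0.28. Of 28 tested activators and adaptors, 16 were listed higher and 12 lower, with a median of 0.01. Over all tested genes, 48.7% were listed higher and 0.612% were called in either direction.

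Cell surface ligands of the leukocyte integrins had no common direction. Of 11 tested genes, 6 were listed higher in q2 and none was called, with a median log2 fold change of 0.21. Over all tested genes, 48.7% were listed higher and 0.612% were called in either direction. Icam1, the main ligand of alphaL and alphaM, was listed at 150.4 FPKM in q2 and 130.3 FPKM in q1 in the authors' deposited table, and Icam2, of endothelium, at 177 FPKM in q2 and 193 FPKM in q1. Vcam1, the ligand of alpha4beta1 and alpha9beta1, was listed at 65.1 FPKM in q2 and 90.8 FPKM in q1 in the authors' deposited table. The junction genes F11r and Jam2 had log2 fold changes of -0.08 and -0.42. Cdh1, the E-cadherin gene, had the lowest p-value of this list, at 6.69 FPKM in q2 and 3.11 FPKM in q1 in the authors' deposited table (unadjusted Cuffdiff p = 0.0163, q = 0.559).

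Genes of laminins, collagens and nidogens were listed lower in q2, as their receptors were. Of 20 tested, 19 were lower, where 7629 of all 14858 tested genes were, and Nid2 alone was higher. None of the 20 was called, and the median log2 fold change was -0.42. Their summed level was 706 FPKM in q2 and 1033 FPKM in q1 in the authors' deposited table. Col1a2 and Col1a1, the chains of type I collagen, were listed at 103 FPKM and 66.1 FPKM in q2, against 211 FPKM and 128 FPKM in q1, in the authors' deposited table (unadjusted Cuffdiff p = 0.00985 and 0.0146). Col6a3 was the third gene with an unadjusted p below 0.05, and Col3a1 and Col4a1 had log2 fold changes of -0.41 and -0.50. Lama5 and Lama3, the laminin chains bound by alpha3beta1, had log2 fold changes of -0.63 and -0.68, and Lama2, the laminin chain around myofibres, -0.45. Of 8 fibroblast markers, 5 were listed lower, among them Col1a1, which is also 1 of the collagen genes above. The 8 summed to 5712 FPKM in q2 and 6563 FPKM in q1 in the authors' deposited table. Gsn alone was 2822 FPKM in q2 and 3583 FPKM in q1 of this, while Dcn was listed higher, at 1407 FPKM in q2 and 1259 FPKM in q1. The part of fibroblasts in the levels of the matrix genes was not tested.

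Of 15 tested ligands of RGD, alpha4 and alpha9 receptors, 6 were listed higher and 9 lower, with a median of -0.05 and none called; the abundant Mfge8, Cyr61, Vtn and Thbs1 had log2 fold changes of 0.04, -0.01, 0.05 and 0.64. Of 14 membrane partners, 9 were listed higher and 5 lower, with a median of 0.06, and 1 was called. This was Plaur, the urokinase receptor that associates with integrins in the membrane, which rose to 298 FPKM in q2, against 119 FPKM in q1, in the authors' deposited table (2.50-fold, Cuffdiff q = 0.0427). The tetraspanins of leukocytes, Cd53 and Cd37, were listed at 78.0 FPKM and 45.8 FPKM in q2, against 31.4 FPKM and 22.3 FPKM in q1, in the authors' deposited table (q = 0.150 and 0.559). The widely expressed Cd9 and Cd81 had log2 fold changes of -0.03 and -0.17, Cav1 of -0.13 and Cd151, the tetraspanin tied to laminin receptors, of -0.56. Sdc1 was listed at 11.9 FPKM in q2 and 26.0 FPKM in q1 in the authors' deposited table (unadjusted Cuffdiff p = 0.0026, q = 0.229), and the sorting marker Sdc4 at 269.7 FPKM in q2 and 173 FPKM in q1 (q = 0.999). Over the 5 lists of adaptors, ligands and partners, 2 of 88 tested genes were called, both higher in q2. Of all tested genes, 0.612% were called, with 74 genes higher and 17 lower, and 48.7% were listed higher.

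The other marker lists stood as follows. Of 10 satellite cell markers, 5 were listed higher and 5 lower, with a median log2 fold change of -0.01. They summed to 584 FPKM in q2 and 551 FPKM in q1. Most of each sum came from the sorting marker Sdc4 (269.7 FPKM in q2 and 173 FPKM in q1), Cd34 (219 FPKM and 260 FPKM) and Vcam1 (65.1 FPKM and 90.8 FPKM). All 8 myofibre markers were listed higher, where 48.7% of all tested genes were, with a median of 0.85 and sums of 3326 FPKM in q2 and 1742 FPKM in q1. Pericyte and smooth muscle markers had a median of -0.29 over 9 genes, and Schwann cell markers 0.08 over 7. None of these 34 genes was called or at 0, and their part in the integrin levels was not tested.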

How the data were processed

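RNA from 6 samples was sequenced. The submitters' processing notes name TopHat2 2.0.9, Cufflinks 2.2.1 and the build mm9. The listed positions nevertheless overlapped the RefSeq genes of GRCm38.p6 for 31 of 31 integrin names, so they are given as GRCm38 and 1-based. Per the file headers, which follow the Cuffdiff layout, the authors deposited 1 FPKM value per gene and condition. The headers name no unit. The authors also deposited a log2 fold change (q2 over q1), a test score that was not printed, a p-value and a q-value. Adjusting the p-values of the 14858 genes of status OK by Benjamini-Hochberg returned the deposited q-values within 0.001. Annotation, depth, normalization and strandedness were not given in the sources used here.

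No test between samples was run, since there is 1 pooled value per condition. The labels do not say whether the 3 samples per genotype are separate mice, so those p-values measure a spread that may be technical. Fold changes are the deposited values, with no pseudocount. Class medians leave out genes listed at 0 on 1 side. Counts of genes at least 2-fold different over all genes include those. Members, classes and lists were chosen with earlier results of these data known. All integrin names are given. Of each adaptor, ligand and partner list, the rule took called genes, the most abundant up to 4, and those with an unadjusted p below 0.05. The rule held for the marker lists too, but these are given mostly as counts and sums. Cartilage and lymphatic lists and Emilin1 were added after values were seen, as were some other genes outside the rule. These were Parva, Fermt2, Fermt3, Lama2, Lama3, Lama5, Cd151, Nid2, Pax7, Pecam1, Lcp1, Csf1r, Mrc1 and Emr1. The adjustment step was tested on simulated data. Alternatives covered q thresholds, low values, pseudocounts of 0.1 and 1, centring and class membership. Python 3.11.15 and pandas 2.3.3 were used.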

Additional observations from a re-analysis of the deposited data

How the results depend on the processing

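The smallest Cuffdiff q-value of an integrin gene was 0.168, so none could be called at a q below 0.1 or 0.01. None was called with p-values adjusted again over genes of at least 1 FPKM, while 8 had an unadjusted Cuffdiff p below 0.05. For the 5 adaptor, ligand and partner lists, the 2 calls became 12 at an unadjusted Cuffdiff p below 0.05, a looser rule that can only add genes. Of all tested genes, 3.72% were higher and 2.27% lower in q2 by that rule. The class medians kept their sign, but this was largely fixed in advance. The tested members of each class, and Itgad and Itga4 where added, were all listed in the same direction. Only centring could therefore have changed a sign, and it did not. For the leukocyte class, the median of 1.11 was 0.98 with a pseudocount of 1, 1.23 with at least 1 FPKM, 1.26 with the untested Itgad, and 1.23 without members that share a listed position with another gene. For the laminin- and collagen-binding class, the median of -0.51 was -0.34 with a pseudocount of 1, -0.36 without its farthest member Itga10, and -0.69 without members that share a position. The difference of the medians, 1.62, was 1.32 with a pseudocount of 1, 1.74 with at least 1 FPKM, 1.77 with untested genes, 1.44 without the farthest member of each class, and 1.92 without members that share a position. The last alternative and the addition of Itga4 to the leukocyte class were chosen after seeing the data. Of the 26 tested subunits, 12 moved by 0.1 or more on the log2 scale with a pseudocount of 1. A pseudocount added to both sides cannot change a sign, so the signs were fixed in advance. The cause of these shifts was not tested beyond the construction of each alternative.

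No paired analysis was possible because the table holds 1 pooled value per condition and no values per sample, and for the same reason no sample was left out. Depth is unknown, so no counting interval is given. Among the tested subunits, Itgb2l, Itgae and Itga10, each under 1 FPKM in at least 1 condition, moved by more than 0.1 with the pseudocount of 0.1 as well, and Itgb2l, at 3.59 without and 2.36 with a pseudocount of 1, moved by the most.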

Other observations

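Several integrin genes are listed with a position that another gene shares. The authors' deposited table gives each gene of such a pair its own value, and whether reads were shared between them was not tested; strandedness was not given in the sources used here. Pelo, a ribosome rescue factor, shares the position of Itga1 and was listed at 11.9 FPKM in q2 and 29.6 FPKM in q1 in the authors' deposited table. Cox6a2, a respiratory chain subunit of muscle, shares that of Itgad and was listed at 48.0 FPKM in q2 and 24.7 FPKM in q1 in the authors' deposited table. Galk1, the galactokinase gene, shares that of Itgb4 and was listed at 15.8 FPKM in q2 and 12.9 FPKM in q1 in the authors' deposited table, opposite in direction to Itgb4. Cerkl shares that of Itga4 and Asap2 that of Itgb1bp1, with log2 fold changes of 0.48 and -0.34. The partners of Itgae, Itga7 and Itga8 at such positions were each under 1 FPKM in both conditions and not tested by the authors.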
